A study of Mus musculus with 8 samples.

Results

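The 10 genes H2-K1, H2-D1, B2m, Tap1, Tap2, Tapbp, Psmb8, Psmb9, Psmb10, and Nlrc5, which carry MHC class I presentation and the immunoproteasome, were followed in mouse splenic T cells. They were chosen by name as rows of the count matrix, and all 10 were present among its 20170 genes. The libraries were single-cell RNA-seq libraries of T cells purified from spleens of WT mice and of SDHA-KO mice, in which Sdha, a subunit of mitochondrial complex II, is floxed and deleted by a Cre recombinase under CD4 control. Cells were taken unstimulated or stimulated for 48 hours through the T cell receptor (anti-CD3 at 5 μg/mL) and CD28 (anti-CD28 at 2.5 μg/mL), with 2 libraries in each of the 4 groups, and dead cells were removed before loading. CD4-Cre acts from the thymus onward in both CD4 and CD8 lineages, so both classes were targeted, and cells that never expressed it can remain. The records do not state whether the 2 libraries of a group came from separate mice, so p values measure only the spread between these libraries.

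Class I molecules present peptides from inside the cell to CD8 T cells. A heavy chain, here H2-K1 or H2-D1, pairs with the light chain β2-microglobulin, encoded by B2m, and receives its peptide in the endoplasmic reticulum. The transporter of Tap1 and Tap2 carries peptides into that compartment, and tapasin, encoded by Tapbp, holds the empty heavy chain beside it. Psmb8, Psmb9, and Psmb10 encode the inducible catalytic subunits of the immunoproteasome, which replace Psmb5, Psmb6, and Psmb7 of the constitutive proteasome. Nlrc5 is a transactivator of class I genes. T cells carry class I molecules themselves, and interferon-γ, which T cells secrete, is a known inducer of these genes.

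The genes lie on 3 chromosomes of the mm10 build. In the GENCODE annotation, H2-K1 spans chr17:33996017-34000347 on the minus strand and H2-D1 spans chr17:35262730-35267499 on the plus strand. Between them on the same chromosome lie Psmb9 (chr17:34181987-34187764), Tap1 (chr17:34187553-34197225), Psmb8 (chr17:34197721-34201454), and Tap2 (chr17:34203527-34216321), with Tapbp at chr17:33915899-33929292 outside H2-K1. B2m is on chromosome 2 (chr2:122147686-122153083), and Nlrc5 (chr8:94434356-94527272) and Psmb10 (chr8:105935735-105938444) are on chromosome 8. H2-K1 and H2-D1 share near-identical stretches with each other and with other class I genes, so the division of reads among them is uncertain.

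RefSeq promoter windows (GRCm38.p6, the assembly behind mm10) existed for 8 of the 10 genes, with no entry for Tap2 and Nlrc5. The 250 bases before the RefSeq start are shown for H2-K1, H2-D1, and B2m, whose levels moved most alike, each 5′ to 3′ on its gene's strand. The RefSeq start of H2-D1 lies 364 bases downstream of the GENCODE start, so its window falls inside the GENCODE span given above. Capitals mark the κB palindrome (the run that opens with GGGGA), TTTCNNTT or its reverse complement AANNGAAA, in B2m a paired GAAA core that overlaps AANNGAAA, and TGACG followed after 20 bases by ATTGG, the reverse of a CCAAT box.
H2-K1, chr17:34000348-34000597, minus strand: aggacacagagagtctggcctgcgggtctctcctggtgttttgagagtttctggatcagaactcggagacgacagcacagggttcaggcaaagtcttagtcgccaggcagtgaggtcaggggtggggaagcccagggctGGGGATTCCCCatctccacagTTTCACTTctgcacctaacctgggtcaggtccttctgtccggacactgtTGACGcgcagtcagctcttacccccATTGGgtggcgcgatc
H2-D1, chr17:35262844-35263093, plus strand: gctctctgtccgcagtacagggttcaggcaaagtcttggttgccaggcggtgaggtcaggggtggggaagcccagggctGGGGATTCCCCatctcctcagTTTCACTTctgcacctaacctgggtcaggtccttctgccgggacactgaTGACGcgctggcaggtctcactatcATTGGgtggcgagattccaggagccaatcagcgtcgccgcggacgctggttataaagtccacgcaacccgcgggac
B2m, chr2:122147437-122147686, plus strand: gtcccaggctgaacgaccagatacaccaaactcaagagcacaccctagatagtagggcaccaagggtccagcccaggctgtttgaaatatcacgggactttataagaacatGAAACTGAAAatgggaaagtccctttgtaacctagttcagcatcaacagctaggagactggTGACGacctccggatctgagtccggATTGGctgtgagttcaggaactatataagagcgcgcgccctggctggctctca

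On both strands, TGACG with ATTGG at that spacing stood in 30 of 32851 windows of this length (0.0913%), which include those of H2-K1, H2-D1, and B2m and of none of the other 5 genes with a window. The κB palindrome stood in 10 windows (0.0304%), among them those of H2-K1 and H2-D1. TTTCNNTT was found in 21.3% of windows and the paired GAAA core in 2.98%, the latter in B2m alone among the 8 genes. A match describes letters in the window and was not tested as a binding site. The shares of all windows give how often the letters occur and are not a test of the genes shown.

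In RefSeq, 225 bases lie between the starts of Psmb9 and Tap1, which are on opposite strands, and this stretch is shown because their values are set side by side below. In GENCODE Psmb9 begins 434 bases further upstream, and the spans of both genes overlap by 212 bases. Capitals mark TGACG (17.8% of windows) and CCAAT (33.8% of windows).
Psmb9 to Tap1, chr17:34187331-34187555, strand of Tap1: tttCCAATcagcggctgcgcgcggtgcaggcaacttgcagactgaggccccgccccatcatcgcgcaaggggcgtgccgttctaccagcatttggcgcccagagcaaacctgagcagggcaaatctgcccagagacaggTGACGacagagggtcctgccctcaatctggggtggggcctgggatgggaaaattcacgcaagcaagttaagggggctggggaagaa

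The authors deposited UMI counts, in which each captured mRNA molecule is counted once through its 3′ end, for 12846 cells with a CD4 or CD8 class and a subtype. UMIs were summed per library and class, giving 6776027 to 34087903 UMIs in CD4 cells and 3640136 to 22311319 in CD8 cells. Levels are given as CPM, the share of a library's UMIs scaled by the trimmed mean of M values (TMM), in which a larger share of expressing cells and a higher level per cell cannot be told apart. Changes are log2 fold changes ± SE from an edgeR fit of the 4 groups, and a gene was called at a Benjamini-Hochberg adjusted p under 0.05 over all genes tested (14264 in CD4 and 13095 in CD8 cells). All 10 genes passed the filter on low counts in both classes.

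In CD4 cells, Sdha stood at 92.5 and 91.8 CPM of library totals in unstimulated WT against 45.8 and 46.7 in SDHA-KO, and at 80.1 and 77.4 in stimulated WT against 28.9 and 28.6 in SDHA-KO. In CD8 cells, Sdha was at 76.7 and 79.5 against 35.7 and 34.5, and at 89.9 and 86.3 against 60.0 and 55.9. Per stimulated cell, mean Sdha UMIs were 2.34 in WT and 0.74 in SDHA-KO CD4 cells, but 2.27 and 2.14 in CD8 cells. The 3′ tags may lie outside the deleted exons, so these values describe the transcript and do not measure the deletion. Cells of stimulated WT and SDHA-KO differed in mitochondrial share: 39.1% and 41.0% of stimulated WT CD4 cells had under 10% mitochondrial UMIs against 86.9% and 90.0% in SDHA-KO, and 24.3% and 29.3% against 65.0% and 64.1% in CD8 cells. In the deposited CD8 class, 59.1% and 56.1% of stimulated SDHA-KO cells held a UMI of Trdc, the γδ T cell receptor constant gene, against 3.67% and 4.92% in WT, and the same shares in the CD4 class were 10.1% and 8.64% against 1.98% and 3.21%. Median UMIs per stimulated CD8 cell were 30662 and 29912 in SDHA-KO and 13152 and 13265 in WT, so a UMI of any gene was easier to find in SDHA-KO. As a share of UMIs, summed γδ T cell markers in these cells were also higher, at 225 to 235 CPM in SDHA-KO and 15.3 to 18.4 in WT. For the 10 genes, results in stimulated cells are therefore also given for cells under 10% mitochondrial UMIs and for strict classes. A strict CD8 cell held Cd8a or Cd8b1 with neither Cd4 nor Trdc. A strict CD4 cell held Cd4 with no Cd8a, Cd8b1, or Trdc. Strict cells were 33.1% and 37.1% of stimulated SDHA-KO CD8 cells but 87.2% and 85.0% of WT, so the strict CD8 sets hold unlike parts of the class. In stimulated CD4 cells the shares were 56.0% and 59.3% in SDHA-KO and 56.7% and 56.0% in WT. In all, 46 of the 12846 cells had a barcode that also occurred in another library.

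Stimulation of WT cells lowered the class I heavy and light chains relative to other transcripts and raised Tap1. In CD4 cells 3 of the 10 genes rose and 7 fell, against 36.2% and 30.1% of all genes tested, and their median was -0.51 against 0.08 over all genes. In CD8 cells 1 rose and 9 fell, against 35.5% and 30.3%, with a median of -0.54 against 0.09. Without WT unstimulated replicate 1, or without WT unstimulated replicate 2, 6 of the 10 were called in CD4 cells.

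H2-K1 in CD4 cells stood at 1687 and 1686 CPM in unstimulated WT and at 891 and 920 in stimulated WT, a change of -0.90 ± 0.07 (adjusted p = 5.3e-07). H2-D1 went from 1479 and 1530 to 774 and 810 (-0.93 ± 0.08, adjusted p = 9.9e-07), and B2m from 1334 and 1382 to 707 and 829 (-0.82 ± 0.09, adjusted p = 1.3e-05). For all 3 chains every stimulated WT library lay below every unstimulated one. In CD8 cells H2-K1 fell from 1615 and 1629 to 941 and 949, H2-D1 from 1426 and 1566 to 905 and 951, and B2m from 1527 and 1630 to 726 and 840, with changes of -0.78 ± 0.06, -0.69 ± 0.08, and -1.01 ± 0.09.

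Tap1 was the one transporter gene that rose. It went from 56.1 and 65.9 CPM to 142 and 140 in WT CD4 cells (1.21 ± 0.09, adjusted p = 2.8e-07) and from 57.1 and 60.4 to 121 and 116 in WT CD8 cells (1.01 ± 0.08, adjusted p = 5.3e-07). Tap2, its partner in the same transporter, went the other way, by -0.24 ± 0.09 in CD4 and -0.33 ± 0.09 in CD8 cells. Tapbp fell by 0.78 on the log2 scale in CD4 and by 0.63 in CD8 cells, and Nlrc5 by 0.23 and 0.46. Without composition scaling, which moves the median of all genes in WT CD8 cells from 0.09 to 0.57, Tap2 was at 0.15 and Nlrc5 at 0.03 in CD8 cells, so their direction there holds relative to other genes only.

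The inducible proteasome subunits did not move as a block. Psmb10 fell from 118 and 129 CPM to 73.3 and 70.5 in WT CD4 cells (-0.78 ± 0.10, adjusted p = 2.5e-05) and from 160 and 181 to 77.1 and 69.8 in WT CD8 cells (-1.22 ± 0.10, adjusted p = 1.1e-06). Psmb8 and Psmb9 rose in WT CD4 cells, by 0.25 ± 0.08 and 0.30 ± 0.12, and fell in WT CD8 cells, by 0.21 and 0.33 on the log2 scale. The CD8 direction of both turned with the cells or the scaling used: among CD8 cells under 10% mitochondrial UMIs Psmb8 was at 0.31 ± 0.08 (called) and Psmb9 at 0.16 ± 0.08, and without composition scaling they were at 0.27 and 0.15. The constitutive partners rose in both classes, Psmb5 by 0.83 ± 0.09 and 0.68 ± 0.08, Psmb6 by 0.91 ± 0.09 and 0.81 ± 0.09, and Psmb7 by 1.11 ± 0.09 and 0.94 ± 0.10 in CD4 and CD8 cells.

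**Figure D1:**
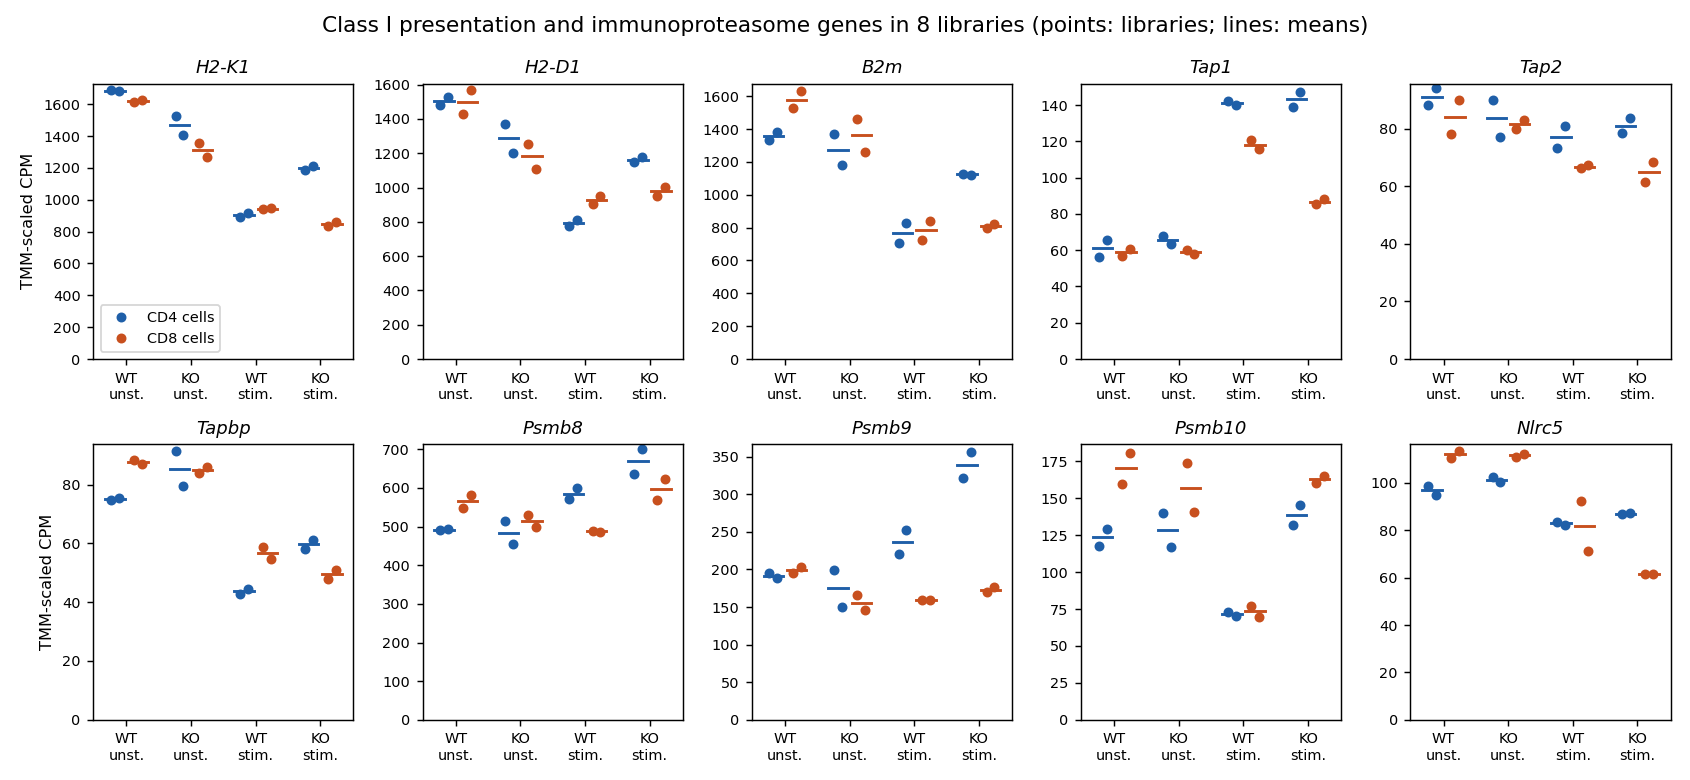
TMM-scaled CPM of each of the 10 genes (vertical axes from 0) in the 4 groups, with 1 point per library, a line at the mean of 2 libraries, and CD4 and CD8 cells in separate colours. H2-K1, H2-D1, and B2m are lower in stimulated than in unstimulated WT cells in both classes, and in stimulated CD4 cells the SDHA-KO points of these 3 genes lie above the WT points.

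Relative levels and molecules per cell differed in direction, since stimulated cells held more UMIs. In WT CD4 cells H2-K1 averaged 11.3 and 11.8 UMIs per unstimulated cell over the 2 libraries and 28.4 and 29.3 per stimulated cell, while its CPM fell. Mean UMIs per cell of all 10 genes were higher in both stimulated libraries than in both unstimulated ones, in each genotype and class. Nlrc5 went from 0.661 and 0.667 to 2.66 and 2.62 UMIs per WT CD4 cell.

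The ratio of each inducible subunit to its constitutive partner fell in every stimulated library. These ratios of UMI counts compare libraries and do not give the stoichiometry of the 2 subunits. Psmb10 over Psmb7 was 2.02 and 2.08 in unstimulated WT CD4 cells and 0.58 and 0.53 after stimulation, and in SDHA-KO it went from 2.32 and 2.14 to 0.81 and 0.78. Psmb8 over Psmb5 went from 4.06 and 4.41 to 2.71 and 2.94 in WT and from 4.30 and 4.01 to 2.13 and 2.04 in SDHA-KO CD4 cells. After stimulation, the first ratio was thus higher and the second lower in both SDHA-KO libraries than in both WT libraries. Psmb9 over Psmb6 in stimulated CD4 cells was 1.01 and 1.18 in WT and 1.27 and 1.19 in SDHA-KO, and in stimulated CD8 cells 0.83 and 0.85 in WT and 0.57 and 0.56 in SDHA-KO, so its order between genotypes differed between classes.

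**Figure D2:**
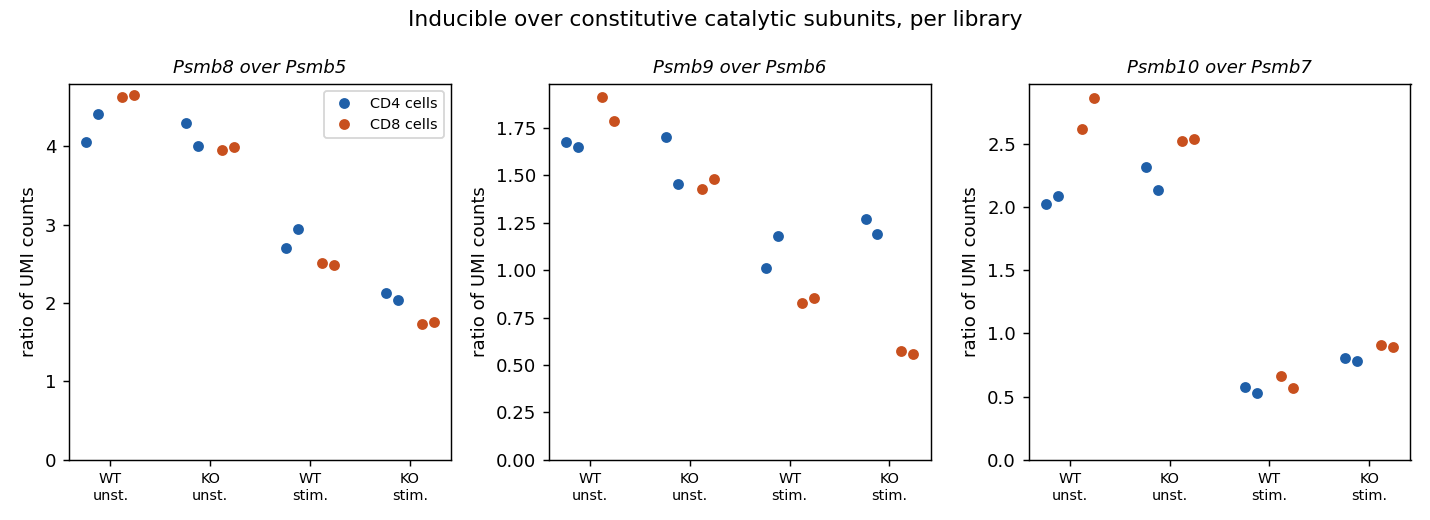
Ratio of UMI counts of each inducible catalytic subunit to the constitutive subunit it replaces (vertical axes from 0), per library and group, for CD4 and CD8 cells. All stimulated points lie below all unstimulated points of the same pair and class, and Psmb10 over Psmb7 is higher in stimulated SDHA-KO than in stimulated WT libraries.

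Stimulated SDHA-KO cells were compared with stimulated WT cells in each class. The genotypes also differed in mitochondrial share and in the share of cells with a Trdc UMI, whose part was not tested. In CD4 cells 6 of the 10 genes were higher in SDHA-KO and 0 lower, against 22.7% and 20.5% of all genes tested, with a median of 0.43 against 0.00. Those called were H2-K1, H2-D1, B2m, Tapbp, Psmb9, and Psmb10. For 8 of the 10 both SDHA-KO libraries lay above both WT libraries and for 0 below, against 37.8% and 36.9% of all genes, and Tap1 and Tap2 overlapped. DESeq2 called 7 (30.3% of genes), and at an unadjusted p under 0.05 edgeR had 7 (51% of genes), the added gene being Psmb8.

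H2-K1 in stimulated CD4 cells stood at 891 and 920 CPM in WT against 1189 and 1210 in SDHA-KO (0.41 ± 0.07, adjusted p = 0.00086). H2-D1 was at 774 and 810 against 1150 and 1175 (0.55 ± 0.08, adjusted p = 0.00022), and B2m at 707 and 829 against 1128 and 1119 (0.55 ± 0.09, adjusted p = 0.00079). None of these groups overlapped. All 3 SDHA-KO values still lay below the unstimulated WT values. Tapbp was at 42.9 and 44.5 against 58.3 and 61.3 (0.45 ± 0.08, adjusted p = 0.00098).

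Psmb10 had the largest difference of the 10 in both classes. In stimulated CD4 cells it had 73.3 and 70.5 CPM in WT against 132 and 145 in SDHA-KO (0.95 ± 0.09, adjusted p = 2e-05). The CD8 values were 77.1 and 69.8 against 160 and 165 (1.15 ± 0.10, adjusted p = 5.5e-06). The SDHA-KO values lay near those of unstimulated cells, and the change with stimulation within SDHA-KO was 0.11 ± 0.09 in CD4 and 0.05 ± 0.10 in CD8 cells, neither of which was called. Psmb9 in stimulated CD4 cells was at 220 and 252 in WT and at 322 and 356 in SDHA-KO (0.52 ± 0.12, adjusted p = 0.0042), and Tap1, its neighbour, at 142 and 140 against 139 and 147 (0.02 ± 0.08, 95% interval -0.15 to 0.19).

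In stimulated CD8 cells 2 of the 10 genes were higher in SDHA-KO and 3 lower, against 26.8% and 23.5% of all genes tested, with a median of 0.00 against -0.01. Psmb10 and Psmb8 were higher, Psmb8 with 490 and 486 CPM in WT against 569 and 624 in SDHA-KO (0.29 ± 0.07, adjusted p = 0.0056). Tap1 was lower, at 121 and 116 in WT and 85.7 and 88.0 in SDHA-KO (-0.44 ± 0.07, adjusted p = 0.00024), as was Nlrc5, at 92.4 and 71.1 against 61.6 and 61.4 (-0.41 ± 0.10, adjusted p = 0.007). Tapbp was at 58.9 and 54.7 against 48.0 and 50.9 (-0.20 ± 0.07, adjusted p = 0.041) and was not called with a replicate block (adjusted p = 0.065), by DESeq2 (0.12), without a filter (0.10), or in a fit of the 4 libraries compared (0.070). H2-K1 (-0.16 ± 0.06), H2-D1 (0.07 ± 0.08), and B2m (0.05 ± 0.09) were not called, with 95% intervals of -0.30 to -0.02, -0.10 to 0.25, and -0.15 to 0.24. For 3 of the 10 both SDHA-KO libraries lay above both WT libraries and for 4 below (38.8% and 38.5% of genes). Without WT stimulated replicate 1, 3 of the 10 genes were called. The lower values are shares of UMIs, and per cell the means did not fall: Tap1 averaged 3.55 UMIs per WT and 3.58 per SDHA-KO cell, Nlrc5 2.45 and 2.54, and Tapbp 1.71 and 2.04. Summed γδ T cell markers were at 225 to 235 CPM in these SDHA-KO libraries and at 15.3 to 18.4 in WT, and their part in the result was not tested.

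The calls depended on which stimulated cells were summed. In strict CD4 cells 6 of the 10 genes were higher and 0 lower in SDHA-KO (21.2% and 19.8% of genes). In strict CD8 cells 2 were higher, Psmb10 at 0.93 ± 0.11 and Psmb9 at 0.24 ± 0.09, and 4 lower, Tap1 at -0.41 ± 0.09, Tap2 at -0.37 ± 0.11, Tapbp at -0.34 ± 0.09, and Nlrc5 at -0.46 ± 0.12 (25% and 24.4%). Among CD4 cells under 10% mitochondrial UMIs, 6 were higher and 0 lower in SDHA-KO (16% and 16.7% of genes), with H2-K1 at 0.51 ± 0.07, H2-D1 at 0.59 ± 0.07, B2m at 0.41 ± 0.09, Tapbp at 0.60 ± 0.09, Psmb10 at 0.59 ± 0.09, and Nlrc5 at 0.37 ± 0.07. Psmb9 was no longer called (0.16 ± 0.11, adjusted p = 0.28). These values are shares of UMIs, and per cell the order was the opposite. Under this limit, mean UMIs per CD4 cell of the 6 called genes were lower in both SDHA-KO libraries than in both WT libraries. H2-D1 averaged 38.7 and 39.6 UMIs per WT cell against 31.9 and 34.9 per SDHA-KO cell. B2m averaged 41.7 and 47.9 against 33.1 and 34.3. The per-cell difference was not tested. In strict CD4 cells under the same limit 7 were higher and 0 lower (14.0% and 15.5%), with Tap2 added.

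Among CD8 cells under 10% mitochondrial UMIs, 2 were higher and 1 lower (18.4% and 17%). Psmb10 was higher at 0.73 ± 0.11 and H2-D1 at 0.31 ± 0.07, Psmb9 was lower at -0.21 ± 0.08, and Tap1, Tapbp, and Nlrc5 were not called, at -0.17, 0.13, and -0.07. In strict CD8 cells under that limit 3 were higher and 1 lower (16.2% and 16.6%). There H2-K1 stood at 0.35 ± 0.07 (adjusted p = 0.0017), H2-D1 at 0.45 ± 0.08 (adjusted p = 0.0011), and Psmb10 at 0.48 ± 0.12 (adjusted p = 0.0078), while Psmb8 was at -0.38 ± 0.09 (adjusted p = 0.0066), the opposite sign to the whole class. Psmb10 was thus called higher in SDHA-KO in each of these sets of cells. H2-D1 was called in the CD4 sets and in both CD8 sets under 10% mitochondrial UMIs, and H2-K1 in the CD4 sets and in strict CD8 cells under that limit. The difference between sets of cells was not tested.

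**Figure D3:**
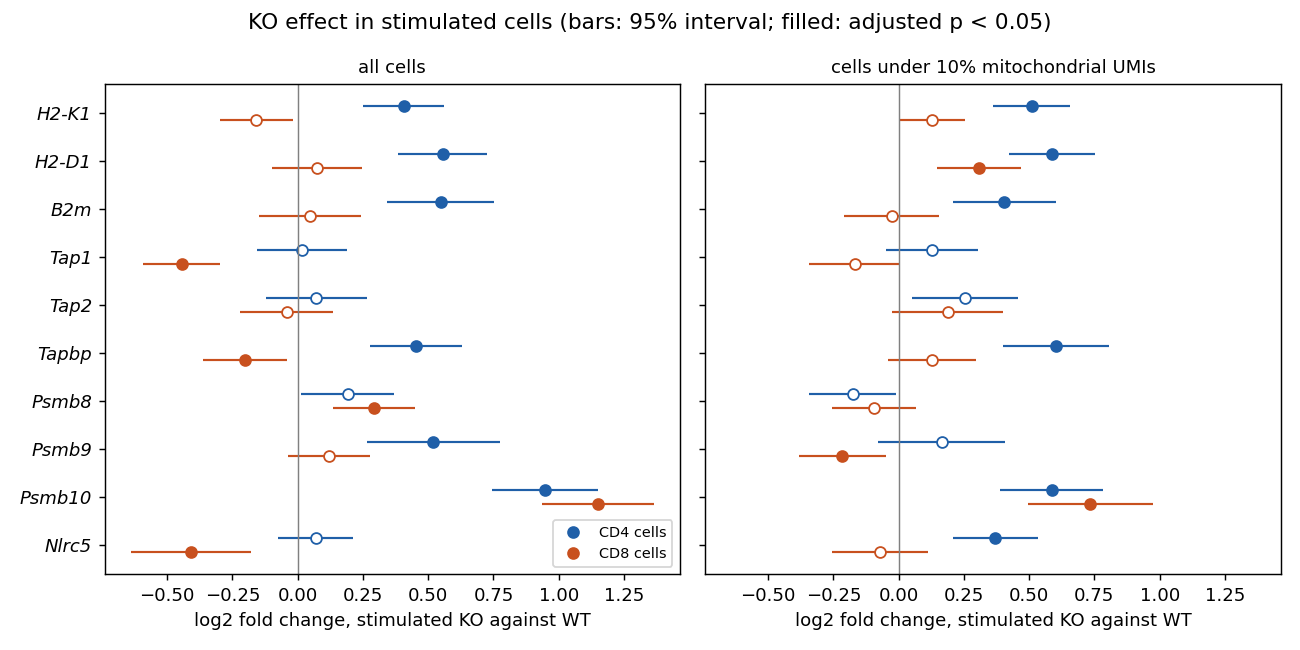
log2 fold change of stimulated SDHA-KO against WT (horizontal axis) for each of the 10 genes, in all cells (left) and in cells under 10% mitochondrial UMIs (right), with bars for the 95% interval and filled points for an adjusted p under 0.05. The CD4 points of H2-K1, H2-D1, B2m, and Tapbp lie to the right of the CD8 points in both panels, and Psmb10 is to the right of 0 in every case.

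Relative to other nuclear transcripts, the 10 genes differed by role between cells of high and low mitochondrial share. As a share of nuclear-gene UMIs, H2-K1 was 2.60 to 3.34 times as high in cells with 10% or more mitochondrial UMIs as in cells under 10%, over the 8 sums of 4 stimulated libraries and 2 classes. The same ratio was 2.31 to 3.48 for H2-D1, 1.36 to 2.62 for B2m, 2.63 to 3.50 for Tap1, 3.12 to 4.64 for Tap2, 2.51 to 3.44 for Tapbp, and 2.29 to 3.77 for Nlrc5. For the catalytic subunits it lay below 1 in all 8 sums, at 0.48 to 0.62 for Psmb8, 0.50 to 0.66 for Psmb9, and 0.33 to 0.58 for Psmb10. Per cell, nearly all of these levels were lower in the cells with 10% or more: the ratio of mean UMIs per cell was 0.46 to 0.78 for H2-K1, 0.24 to 0.48 for B2m, 0.46 to 0.81 for Tap1, and 0.06 to 0.13 for Psmb10, and among the 10 genes it passed 1 in 1 sum, of Tap2. These cells share their libraries, so the ratios are given without a test.

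**Figure D4:**
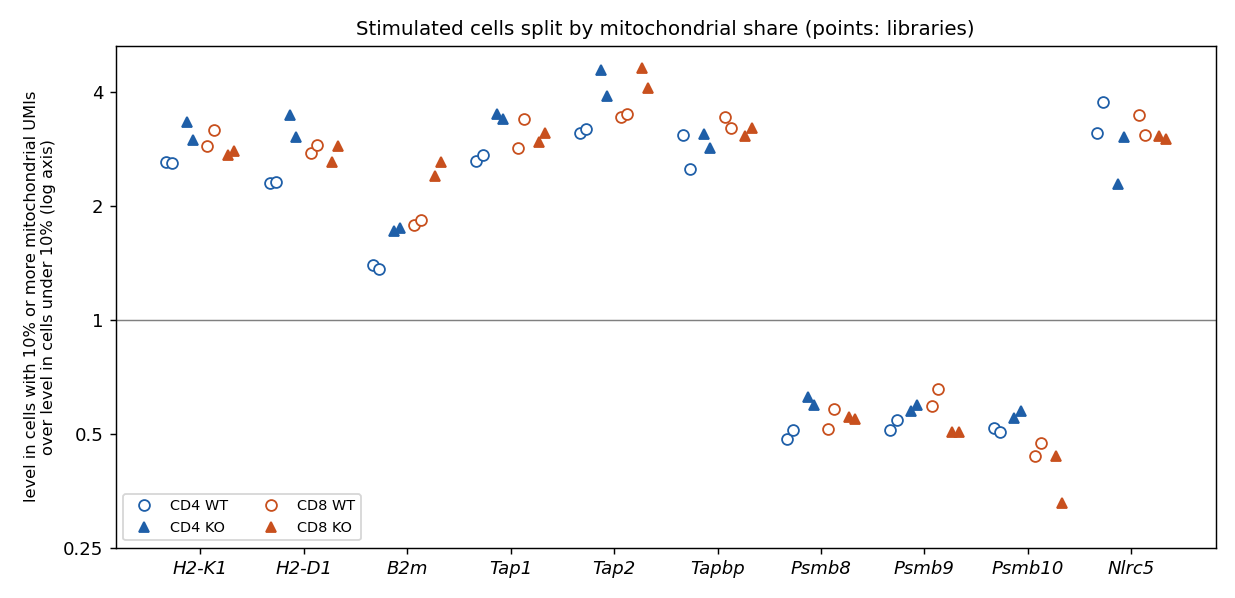
Ratio of the level in stimulated cells with 10% or more mitochondrial UMIs to that in cells under 10%, as a share of nuclear-gene UMIs (log axis), with 1 point per library and class. The 7 genes other than the proteasome subunits lie above 1 and the 3 subunits below 1 in every library.

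An interaction term with a library block tested among stimulated libraries whether the SDHA-KO effect differed between CD8 and CD4 cells. The deposited classes were compared, and 59.1% and 56.1% of the SDHA-KO cells in the CD8 class held a Trdc UMI. In 7 of the 10 genes the effect was lower in CD8 than in CD4 cells and in 0 higher, against 10.4% and 11.9% of genes. The difference was -0.58 ± 0.05 for H2-K1, -0.50 ± 0.05 for H2-D1, -0.52 ± 0.05 for B2m, -0.67 ± 0.08 for Tapbp, -0.47 ± 0.06 for Tap1, -0.41 ± 0.08 for Psmb9, and -0.48 ± 0.11 for Nlrc5. Psmb10 (0.19 ± 0.07), Psmb8 (0.08 ± 0.06), and Tap2 (-0.13 ± 0.07) were not called. In cells under 10% mitochondrial UMIs the 7 genes called were the same, at -0.30 to -0.50 (8.58% lower and 9.67% higher over all genes). In strict classes 7 were also lower (5.09% and 5.31%), with Tap2 (-0.45 ± 0.11) called and Psmb9 (-0.25 ± 0.08) not. The test compares shares of UMIs, and the order of the classes was not the same per cell. The ratio of mean UMIs per stimulated cell, SDHA-KO over WT, was 1.16 in CD4 and 1.23 in CD8 cells for H2-K1, 1.29 and 1.44 for H2-D1, 1.28 and 1.41 for B2m, 0.89 and 1.01 for Tap1, 1.26 and 1.49 for Psmb9, 0.92 and 1.04 for Nlrc5, and 1.2 in both for Tapbp. These ratios are over all stimulated cells of a class and were not tested. In unstimulated libraries 0 of the 10 were called higher and 0 lower (0.293% and 0.258% of genes) by edgeR, and 1 had an unadjusted p under 0.05 (8.6% of genes).

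In WT the classes differed before stimulation. In unstimulated cells 5 of the 10 genes were higher in CD8 than in CD4 cells and 0 lower, against 11.5% and 10.8%: Psmb10 by 0.49 ± 0.06, B2m by 0.25 ± 0.04, Tapbp by 0.25 ± 0.08, Nlrc5 by 0.24 ± 0.07, and Psmb8 by 0.23 ± 0.05. Without WT unstimulated replicate 2, 2 of them were called. In stimulated WT cells 2 were higher, Tapbp by 0.44 ± 0.06 and H2-D1 by 0.29 ± 0.04, and 3 lower, Psmb9 by -0.51 ± 0.06, Psmb8 by -0.21 ± 0.04, and Tap1 by -0.20 ± 0.04 (11% and 12.5% of genes). Without WT stimulated replicate 1, or without WT stimulated replicate 2, 3 were called.

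Before stimulation, SDHA-KO and WT were not separated by the test in either class. In CD4 cells edgeR called 0 genes higher and 0 lower (0.526% and 0.575% of genes tested), 2 had an unadjusted p under 0.05 (16% of genes), and DESeq2 called 2 (2.33%). In CD8 cells it also called 0 and 0 (0.283% and 0.664%), 4 had an unadjusted p under 0.05 (14.1%), and DESeq2 called 3 (2.35%). Both SDHA-KO libraries lay above both WT libraries for 2 genes and below for 2 in CD4 cells (26.3% and 19.4% of genes), and for 0 and 6 in CD8 cells (20.8% and 22%). The lowest adjusted p was that of H2-K1 in CD8 cells, at 1615 and 1629 CPM in WT and 1356 and 1268 in SDHA-KO (-0.31 ± 0.06, adjusted p = 0.056). In CD4 cells H2-K1 was at 1687 and 1686 against 1528 and 1406 (-0.20 ± 0.07, adjusted p = 0.21). Both SDHA-KO values of H2-K1 lay below both WT values in each class. The unstimulated classes also differed in Trdc. A Trdc UMI was held by 19.7% and 15.2% of SDHA-KO CD8 cells against 3.90% and 3.41% in WT. In CD4 cells the shares were 7.08% and 7.60% against 3.64% and 2.84%. The part of these cells in the values was not tested. Among CD8 cells under 10% mitochondrial UMIs H2-K1 alone was called, lower at -0.30 ± 0.06 (adjusted p = 0.033, 0.992% of genes called lower), and it was not called there without WT unstimulated replicate 1, WT unstimulated replicate 2, or KO unstimulated replicate 2.

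Stimulation was also followed within SDHA-KO. In CD4 cells 3 of the 10 genes rose and 3 fell (36.6% and 33.2% of genes), and in CD8 cells 2 rose and 6 fell (37.2% and 30.9%). H2-K1 in CD4 cells fell from 1528 and 1406 to 1189 and 1210 (-0.29 ± 0.07, adjusted p = 0.0031), while H2-D1 (-0.15 ± 0.08) and B2m (-0.18 ± 0.09) were not called. Tap1 rose by 1.13 ± 0.08 and Psmb9 by 0.95 ± 0.12 in CD4 cells. Comparisons that share these groups are not independent, so the change in effect was tested directly.

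Testing whether the SDHA-KO effect changed with stimulation, the effect in CD4 cells was higher after stimulation for 5 of the 10 genes and lower for 0 (10.9% and 10.5% of genes). It was 0.89 ± 0.13 for Psmb10, 0.78 ± 0.11 for H2-D1, 0.65 ± 0.17 for Psmb9, 0.64 ± 0.13 for B2m, and 0.61 ± 0.10 for H2-K1. In CD8 cells it was higher for 4, Psmb10 (1.27 ± 0.15), Psmb9 (0.48 ± 0.11), Psmb8 (0.43 ± 0.10), and H2-D1 (0.42 ± 0.11), and lower for 1, Tap1 (-0.45 ± 0.11), against 13.5% and 10.2%. The count in CD8 cells was 3 without WT unstimulated replicate 1, WT stimulated replicate 1, or KO stimulated replicate 2, and 2 without WT unstimulated replicate 2 or KO unstimulated replicate 2. The share of CD8 cells with a Trdc UMI differed between genotypes in both states, and its part was not tested.

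The authors' subtypes were compared where each of the 4 libraries of a state held at least 50 cells. The heavy chains were higher in SDHA-KO in all 5 stimulated CD4 subtypes tested and were called in neither CD8 subtype. Of the 10 genes, the number called was 6 in Tcm2 (12.9% of genes called in either direction), 7 in Tcm4 (15.1%), 4 in Tem1 (27.8%), 6 in Tem2 (24%), and 6 in Tem3 (23%). All were higher in SDHA-KO except Psmb8 in Tem1, at -0.54 ± 0.07. H2-K1 ranged from 0.44 in Tem1 to 0.80 in Tcm2, and H2-D1 from 0.46 in Tem1 to 0.93 in Tcm4.

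In stimulated CD8 Tcm4 cells 0 of the 10 were called by edgeR (5.62% of genes), with 1 at an unadjusted p under 0.05 (22.9%), and in CD8 Tem2 cells 3 were (32.6%): Psmb10 higher at 0.90, and Tap1 and Nlrc5 lower at -0.41 and -0.44. H2-K1 was at -0.24 and -0.19 and H2-D1 at -0.01 and 0.18 in these subtypes. Among the stimulated subtypes tested, the Tcm were those with high mitochondrial share. Over libraries, median shares were 15.2% to 26.0% in CD4 Tcm2 and 9.07% to 19.2% in CD4 Tcm4, but 1.5% to 2.90% in CD4 Tem1. Subtypes not tested did not all divide this way, with 1.19% to 16.7% in CD8 Tem6 and 5.99% to 13.3% in CD4 Tcm5. H2-K1 in WT CD4 cells was at 1841 and 1714 CPM of the subtype total in Tcm2 and at 636 and 687 in Tem2, and Psmb9 at 143 and 147 against 254 and 264. The subtypes were clustered on expression, so differences between them are given without a test.

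In unstimulated cells the calls within subtypes were all lower in SDHA-KO and fell on naive cells. The number called was 1 in CD4 Naive1 (2.36% of genes in either direction), 2 in Naive2 (2.91%), 1 in Naive3 (1.55%), and 3 in Naive4 (2.39%), and 2 in CD8 Naive1 (2.41%) and 3 in CD8 Naive2 (2.24%). H2-D1 was called in all 6, at -0.28 to -0.45, and H2-K1 in 4, at -0.32 to -0.55. In CD8 Naive1, H2-K1 was at 1302 and 1350 CPM of the subtype total in WT and at 1002 and 984 in SDHA-KO. In CD4 Tem1 (7.83%), CD4 Treg (0.706%), and CD8 Tcm1 (0.496%) edgeR called 0, with 1, 1, and 0 genes at an unadjusted p under 0.05 (17.9%, 10.2%, and 7.5% of genes). The total of 12 calls rested on single libraries, since it was 6 without WT unstimulated replicate 1, 1 without WT unstimulated replicate 2, and 19 without KO unstimulated replicate 1.

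**Figure D5:**
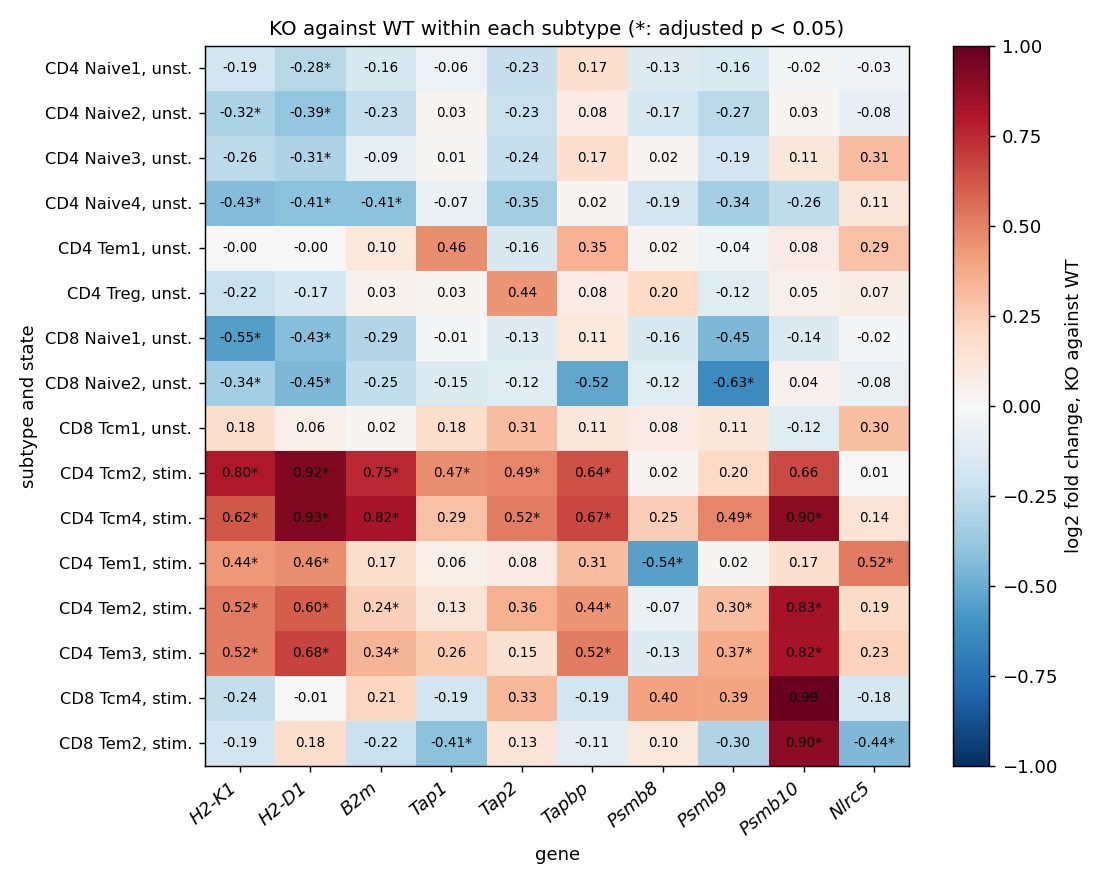
log2 fold change of SDHA-KO against WT for each of the 10 genes (columns) in each subtype and state tested (rows), with a star where the adjusted p was under 0.05. The columns of H2-K1 and H2-D1 are positive in stimulated CD4 subtypes and negative in unstimulated naive subtypes.

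Other genes of the pathway were followed from lists. In stimulated SDHA-KO, where 22.7% of all genes were called higher in CD4 and 26.8% in CD8 cells, all 3 constitutive catalytic subunits were higher in each class, as were 5 of 11 structural subunits in CD4 and 11 of 11 in CD8 cells and 4 and 5 of 6 activator and assembly genes, with 0 lower in any of these lists. Among cells under 10% mitochondrial UMIs the structural subunits had 1 call higher and 3 lower in the CD4 class (16% and 16.7% of all genes) and 0 in either direction in the CD8 class (18.4% and 17%), and 1 and 2 of the constitutive subunits were higher. Psmb5 had the largest change of the 3 constitutive subunits over all cells, at 0.63 ± 0.08 in CD4 and 0.81 ± 0.07 in CD8 cells. The PA28 activator genes Psme1 and Psme2 were at 0.39 ± 0.07 and 0.71 ± 0.11 in the CD4 class and at 0.27 ± 0.07 and 0.73 ± 0.08 in the CD8 class. Psma1, a structural subunit, was at 0.55 ± 0.08 in CD4 cells, Psmb4, another, at 0.60 ± 0.07 in CD8 cells, and Psme3, which encodes PA28γ, at 0.94 ± 0.09 in CD8 cells.

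Over whole classes, Ifng, the gene of interferon-γ itself, was higher in stimulated SDHA-KO in both. It was at 32.7 and 49.9 CPM in WT and 383 and 186 in SDHA-KO CD4 cells (2.78 ± 0.41, adjusted p = 0.00034), and at 767 and 1234 against 3971 and 3349 in CD8 cells (1.87 ± 0.18, adjusted p = 1.2e-05). Irf1, a transcription factor that interferon-γ induces, was not called in either class (0.24 ± 0.12 and -0.23 ± 0.10). Of 8 interferon-γ-induced GTPase genes, 5 were higher and 0 lower in CD4 cells (22.7% and 20.5% of all genes), with Gbp3 at 0.77 ± 0.18, and 1 was higher and 3 lower in CD8 cells (26.8% and 23.5%), with Irgm1 at 0.71 ± 0.11 and Gbp5 at -1.10 ± 0.15.

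In the remaining lists the counts were small, and are to be read against the shares of all genes called higher and lower, which were 22.7% and 20.5% for CD4 cells. For CD8 cells those shares were 26.8% and 23.5%. Of 9 other class I and class I-like genes, 2 were higher and 2 lower in stimulated SDHA-KO CD4 cells and 1 and 3 in CD8 cells. H2-T22 was at 0.48 ± 0.09 and 0.27 ± 0.09, H2-M3, which presents formylated peptides, at -0.71 ± 0.10 in CD4 cells, and H2-Q4 at -0.88 ± 0.07 in CD8 cells. Of 5 loading and trimming partners, 1 was higher and 1 lower in CD4 cells, and 2 were higher and 0 lower in CD8 cells, with the chaperone gene Calr at 0.29 ± 0.10 and 0.79 ± 0.08 and Canx at -0.35 ± 0.08 in CD4 cells. Of 7 class I promoter factors, 2 were higher and 1 lower in CD4 cells, Rfx5 at 0.51 ± 0.18 and Nfyb at -0.61 ± 0.08, and 1 and 1 in CD8 cells, Rfxap at 0.26 ± 0.09 and Irf2 at -0.27 ± 0.08.

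Markers of other cells were low but not constant. Summed myeloid markers were at 146 to 150 CPM in stimulated SDHA-KO CD4 cells and 74.7 to 77.5 in WT, and at 134 to 138 and 74.9 to 75.3 in CD8 cells. Summed B cell markers were at 57.8 and 306 CPM in the 2 stimulated SDHA-KO CD8 libraries against 43.4 to 45.5 in WT. NK cell markers were at 97.2 to 134 against 48.0 to 53.8 in the same class. Summed MHC class II genes were at 25 and 136 against 43.6 to 57.1 in CD8 cells and at 91.1 and 123 against 101 to 106 in CD4 cells. These sums join genes called in opposite directions in stimulated SDHA-KO. In CD8 cells H2-Eb1 was at 4.08 ± 0.88 and H2-Ab1 at -1.55 ± 0.59. In CD4 cells H2-Aa was at 3.16 ± 1.06 and H2-Ab1 at -2.42 ± 0.49.

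Over the 16 sums of 8 libraries and 2 classes, the 10 genes did not follow 1 pattern. H2-K1 and B2m had the highest correlation (Pearson r = 0.94), followed by H2-K1 and H2-D1 (0.94) and H2-D1 and B2m (0.93), and Tap1 and Tapbp the lowest (-0.84). With the mean standardized level of the 10, r was 0.91 for B2m and -0.50 for Tap1. Among 5717 other genes at 20 CPM or more, the 5 most like that mean were Atp5e, Mcrip1, Pet100, Rpl26, and Eif3f, with r from 0.92 to 0.93. The CD4 and CD8 sums share libraries and the largest contrast among them is stimulation, so these values only describe the pattern.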

How the data were processed

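Per the labels and the study's methods, the authors demultiplexed reads with bcl2fastq, counted them with Cell Ranger against mm10, and deposited UMI counts per gene and cell, with a table giving each cell's CD class, subtype, and percent of mitochondrial UMIs. Versions are not given in the sources used here. The deposited counts were raw whole numbers, and the deposited percent values were used only to split cells at 10%.

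UMIs were summed per library and class and tested with edgeR 4.0.16 (R 4.3.3) by the quasi-likelihood test, after filterByExpr with a minimum count of 10 and a minimum total of 15 and with TMM scaling. The fit per class held 8 libraries and 4 residual degrees of freedom. CD8 and CD4 sums were compared over the 4 libraries of a state, with library as a block, so each genotype rested on 2 libraries. Subtypes were tested where each library held at least 50 cells, in fits of the 4 libraries of a state with 2 residual degrees of freedom. Adjusted p values are Benjamini-Hochberg over all genes tested. Library totals of 3640136 to 34087903 UMIs limit the precision, and the spread between replicates was 8.73% in CD4 and 8.24% in CD8 cells. Replicates of every group differed by more than sampling noise, the chi-square statistic divided by its degrees of freedom being 1.54 to 13.6. The scripts were tested on simulated data.

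The members and lists were chosen with earlier results of these data known. All 10 members are named. From the other lists, the called genes with the largest rise and fall in stimulated SDHA-KO, and Ifng, Irf1, Psme1, Psme2, Psmb5, Psmb6, and Psmb7, could be named, as could the 5 genes most like the members' mean. Some genes and the results that need them are not reported here. Alternatives were DESeq2 1.42.0, its size factors, no composition scaling, no filter, no mitochondrial genes, a replicate block, the 4 libraries compared alone, thinning, other sets of cells, and leaving out each library. Same-numbered replicates correlated at -0.08 to 0.05 in their deviations from group means.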

Additional observations from a re-analysis of the deposited data

Results flagged for a closer look

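The SDHA-KO effect differed between states by a test of the difference itself. In CD4 cells the effect was higher in stimulated than in unstimulated libraries by 0.64 ± 0.13 for B2m, 0.89 ± 0.13 for Psmb10, 0.61 ± 0.10 for H2-K1, 0.65 ± 0.17 for Psmb9, and 0.78 ± 0.11 for H2-D1 on the log2 scale (edgeR adjusted p from 0.00077 to 0.019). In CD8 cells it was higher by 1.27 ± 0.15 for Psmb10, 0.48 ± 0.11 for Psmb9, 0.43 ± 0.10 for Psmb8, and 0.42 ± 0.11 for H2-D1, and for Tap1 the difference was -0.45 ± 0.11 (adjusted p from 0.00032 to 0.021).

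The SDHA-KO effect in stimulated cells also differed between classes, tested with library as a block. The effect in CD8 minus that in CD4 cells was -0.52 ± 0.05 for B2m, -0.48 ± 0.11 for Nlrc5, -0.67 ± 0.08 for Tapbp, -0.58 ± 0.05 for H2-K1, -0.41 ± 0.08 for Psmb9, -0.47 ± 0.06 for Tap1, and -0.50 ± 0.05 for H2-D1 (adjusted p from 0.00071 to 0.019). Trdc had a UMI in 59.1% and 56.1% of stimulated SDHA-KO CD8 cells and in 10.1% and 8.64% of CD4 cells, and its part in these differences was not tested.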

How the results depend on the processing

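Counts below are of the 10 genes called, and the cause of a change was not tested. For unstimulated SDHA-KO against WT, with 0 called in each class, DESeq2 called 2 in CD4 and 3 in CD8 cells, and in CD8 cells 2 were called without a filter, 3 with only the 4 libraries compared, 1 under 10% mitochondrial UMIs (0 under 5%), 2 in the strict class, 2 after thinning, and 2 in the strict class under 10%, an alternative chosen after seeing the data. Stimulated SDHA-KO CD8 cells gave 3 in place of 5 under 10%. The difference between states in CD8 cells gave 3 in place of 5 without composition scaling, under 10%, and in the strict class under 10%. WT stimulation in CD8 cells gave 6 in place of 10 without composition scaling. The 32 calls within stimulated subtypes became 49 without composition scaling, 21 with DESeq2, and 15 under 10%, where fewer subtypes had enough cells.

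Leaving out 1 library gave 6 to 7 for stimulated SDHA-KO in CD4 and 3 to 5 in CD8 cells, 0 in CD4 and 0 to 1 in CD8 cells unstimulated, 6 to 10 and 7 to 10 for WT stimulation, 6 to 8 in both classes for SDHA-KO stimulation, 4 to 5 and 2 to 6 for the difference between states, 2 to 5 and 3 to 6 for CD8 against CD4 WT cells unstimulated and stimulated, and 5 to 7 and 0 for the difference between classes stimulated and unstimulated. Under 10% the ranges were 5 to 7 and 2 to 3 stimulated and 0 and 0 to 2 unstimulated in CD4 and CD8 cells. Subtype calls ranged from 23 to 27 stimulated and 1 to 19 unstimulated. The 1 call in unstimulated CD8 cells came without WT stimulated replicate 1 or WT stimulated replicate 2, and 2 calls under 10% came without KO stimulated replicate 1 or KO stimulated replicate 2.

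Directions turned for these values. Without composition scaling, stimulation of SDHA-KO was 0.0017 for Nlrc5 in CD4 and 0.011 for H2-D1 in CD8 cells, WT CD8 stimulation was 0.15 for Tap2, 0.27 for Psmb8, 0.15 for Psmb9, and 0.028 for Nlrc5, and H2-D1 in unstimulated WT CD8 against CD4 cells was -0.15. Under 10%, stimulated SDHA-KO CD8 cells had Tapbp at 0.13, Psmb8 at -0.094, and Psmb9 at -0.21, WT CD8 stimulation had Psmb8 at 0.31 and Psmb9 at 0.16, and stimulated WT CD8 against CD4 had H2-K1 at -0.14. In the strict class, SDHA-KO CD8 stimulation had Psmb8 at -0.019. In the strict class under 10%, stimulated SDHA-KO CD8 cells had H2-K1 at 0.35, Tapbp at 0.093, Psmb8 at -0.38, and Nlrc5 at 0.045, WT CD8 stimulation had Psmb8 at 0.30 and Psmb9 at 0.17, and the difference between states had Psmb8 at -0.24.

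With a replicate block, 6, 0, 8, 6, and 5 genes were called in CD4 cells for stimulated SDHA-KO, unstimulated SDHA-KO, WT stimulation, SDHA-KO stimulation, and the difference between states, and 4, 0, 10, 8, and 5 in CD8 cells. Whether the replicate numbers pair the samples is not known. The low correlations of same-numbered replicates cannot settle it, since differences between 2 libraries also hold sampling noise. No other call among the 10 genes changed than Tap2 and Psmb9 in WT CD4 stimulation and Tapbp in stimulated SDHA-KO CD8 cells.

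Without composition scaling, the median log2 change of all genes moved from 0.08 to 0.30 for WT and from 0.03 to 0.26 for SDHA-KO stimulation in CD4 cells, from 0.09 to 0.57 and from 0.10 to 0.39 in CD8 cells, to 0.12 for unstimulated SDHA-KO CD8 cells, from -0.01 to -0.21 for the difference between states in CD8 cells, and to -0.16 for unstimulated WT CD8 against CD4 cells. The share of all calls that were higher moved in the same order from 54.6% to 65.4%, 52.4% to 62.8%, 54.0% to 75.6%, 54.6% to 66.2%, 29.8% to 73.0%, 56.9% to 32.8%, and 51.5% to 21.9%, and from 46.9% to 63.7% for stimulated WT CD8 against CD4 cells and from 53.3% to 39.5% (stimulated) and 53.2% to 71.9% (unstimulated) for the difference between classes. With DESeq2 size factors it moved from 47.8% to 37.6% for unstimulated SDHA-KO CD4 cells. Over single genes, 2003 of 2180 values from alternatives other than leaving out a library kept direction and call, 77 lost and 79 gained a call, and 21 turned.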
